A study of Mus musculus with 4 samples.

Results

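The interferon regulatory factor (IRF) genes measured in follicular B cells were Irf1, Irf2, Irf3, Irf4, Irf5, Irf7, Irf8 and Irf9. They were chosen by their gene symbols, with earlier results of these data known, and make up 8 of the 23305 genes in each table. RNA was sequenced from quiescent follicular B cells of female mouse spleens in 4 libraries, 2 biological replicates from wild-type (WT) mice and 2 from Ets1-/- mice. Ets1 is a transcription factor of the Ets family, and the comparison asks which transcripts differ in B cells that develop without it. The WT strain was C57BL/6, while the Ets1-/- animals, in which every cell carries the mutation, were of a mixed C57BL/6 x 129Sv background, so strain and genotype cannot be told apart. No age was given for these mice. In both genotypes, live cells were sorted as B220+, CD23-high and CD21-low. They were also negative for CD80 and for surface IgA, IgE, IgG1, IgG2a, IgG2b and IgG3.

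IRF factors are DNA-binding proteins that recognise repeats of the sequence GAAA through a shared N-terminal domain. Irf1, Irf2, Irf3, Irf5, Irf7 and Irf9 are best known from the interferon response, in which infected or interferon-treated cells switch on antiviral genes. Irf4 and Irf8 are the lymphoid and myeloid members, which bind DNA weakly alone and more firmly beside an Ets family partner such as PU.1 or Spi-B, and which steer B cells between the resting, germinal centre and plasma cell states.

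The values are FPKM, a fragment count divided by transcript length and by the size of its library, so that levels of different genes can be set side by side per length. How library size was scaled was not given in the sources used here. The estimated depth of the deepest library was 2.0 times that of the shallowest, Ets1-/- replicate 2. The sort was checked by its markers, of which 7 of the 8 listed follicular B cell genes were found, with a summed FPKM of 6412 and 6189 in WT and of 5029 and 6076 in Ets1-/- cells. Cd79a and Cd79b make up most of that sum. Cr2, which encodes the CD21 of the gate, had 102 and 116 FPKM in WT and 65.1 and 29.95 FPKM in Ets1-/- cells (log2 fold change -1.28, limma adjusted p 0.216). The 8 neutrophil markers summed to 110.5 and 92.35 FPKM in WT and to 2555 and 699.3 FPKM in Ets1-/- cells, and 3 of them (Camp, Ltf and Ngp) rose past the thresholds given below. The whole-gene FPKM of Ets1 was 231 and 275 in WT and 229 and 229.8 in Ets1-/- cells, and does not check the genotype, because the mutant gene still gives a transcript.

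All 8 IRF genes were expressed in every library, at levels from 19.7 FPKM (Irf7 in Ets1-/- replicate 1) to 338 FPKM (Irf8 in Ets1-/- replicate 2). The median WT level of the 10949 genes tested was 14.1 FPKM, below the WT mean of each IRF gene. Irf8 was the most abundant in all 4 libraries, ranking between 274 and 360 of all genes. In WT cells Irf5 came next with 158 and 137 FPKM, followed by Irf1 with 119.7 and 109 FPKM, and the libraries of these 3 genes did not overlap one another. Irf2, Irf3, Irf9 and Irf4 formed the middle of the WT order, between 47.3 and 78.4 FPKM. There the Irf4 values overlapped those of Irf3 and Irf9, and the Irf2 values lay within those of Irf3. Irf7 was the lowest in WT cells, with 36.8 and 25.9 FPKM. In Ets1-/- cells Irf8 again came first, Irf5 and Irf1 overlapped each other and came next, and Irf2 stood alone above Irf3 and Irf9. Those last genes overlapped each other, as did Irf4 and Irf7 at the bottom.

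**Figure D1:**
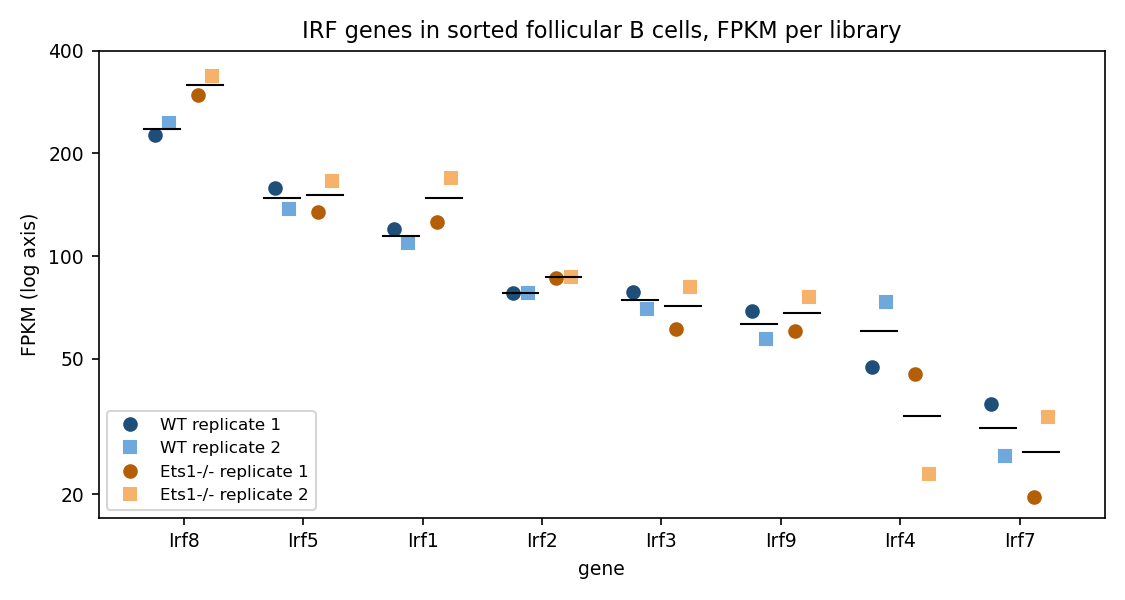
FPKM (log axis) of the 8 IRF genes, ordered by their WT mean, with circles for replicate 1, squares for replicate 2 and a line for the mean of each genotype. Irf8 is highest in all 4 libraries, and Irf4 is lower in both Ets1-/- libraries (45.2 and 23.0 FPKM) than in both WT libraries (47.3 and 73.4 FPKM).

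Expression was compared with limma on log2(FPKM + 1), over genes with a mean of at least 1 FPKM in either genotype, and differences are given as the log2 fold change (log2FC) of Ets1-/- over WT. Genes whose FPKM + 1 differed 2-fold or more (log2FC of 1 or beyond, in either direction) at a Benjamini-Hochberg adjusted p no higher than 0.05 were called changed. The added 1 makes the log2FC of a gene near or below 1 FPKM smaller than that of its FPKM. Of the 8 IRF genes, all of which were tested, 0 were called changed by limma and 0 had an unadjusted p under 0.05. Of all genes tested, 186 (1.70%) were called and 1461 (13.3%) had an unadjusted p under 0.05. In bulk RNA, fewer cells of a type and less RNA per cell cannot be told apart. With 2 libraries against 2, no permutation test can give a two-sided p below 0.333, so the limma fit, which pools the spread over genes, is the only test given, and its p-values measure only the spread between these samples.

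Both Ets1-/- libraries lay above both WT libraries for Irf1, Irf2 and Irf8, 3 of the 8 genes, an order found for 19.4% of all genes tested. The opposite order was found for Irf4 alone, 1 of the 8 genes, and for 22.2% of all genes tested. For Irf3, Irf5, Irf7 and Irf9 the genotypes overlapped. The median log2FC of the 8 IRF genes was 0.07, beside -0.02 for all genes tested.

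**Figure D2:**
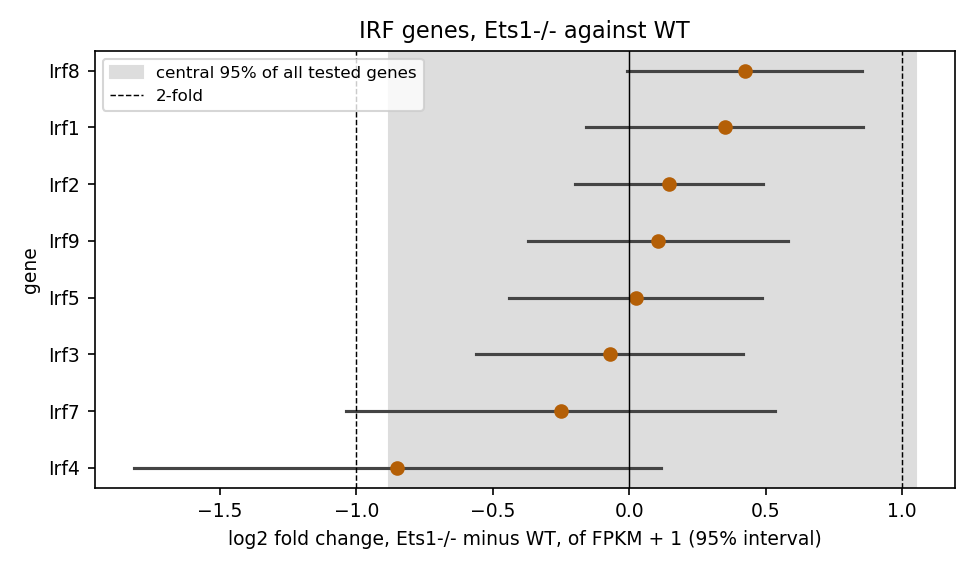
Log2 fold change of FPKM + 1 (Ets1-/- minus WT) for each IRF gene, with points for the limma estimate and lines for its 95% interval. All 8 intervals include 0, and all 8 points lie inside the grey band from -0.88 to 1.05 that holds the central 95% of the genes tested.

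Irf8, which with PU.1 activates germinal centre genes and holds B cells back from the plasma cell state, had 226 and 245 FPKM in the WT libraries and 296 and 338 FPKM in the Ets1-/- libraries. Both Ets1-/- values were above both WT values, and the gap between the genotypes was wider than the gap within either. The WT mean was 235.8 ± 13.42 FPKM and the Ets1-/- mean 317.0 ± 29.99 FPKM (each with its SD, n = 2), a ratio of 1.34. The log2FC was 0.42 (standard error, SE, 0.169, 95% interval -0.01 to 0.86), and limma gave an adjusted p of 0.383. On the fold scale the interval ran from 0.994 to 1.81, so a difference of 2-fold in either direction lay outside it. Of all genes tested, 17.1% had a log2FC of this size or larger in either direction. Irf8 lies on the plus strand of chromosome 8, at 123260258 to 123280594 of mm9.

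Irf4, which is induced by antigen receptor signals and is needed for plasma cells and class switching, had 47.3 and 73.4 FPKM in the WT libraries and 45.2 and 23.0 FPKM in the Ets1-/- libraries. The genotypes did not overlap, but the lower WT value and the higher Ets1-/- value were close to each other. The replicates of Irf4 differed more than those of any other of the 8 genes, by a ratio of 1.55 in WT and of 1.97 in Ets1-/- cells. The WT mean was 60.35 ± 18.52 FPKM and the Ets1-/- mean 34.08 ± 15.71 FPKM (each with its SD, n = 2), or 56.5% of WT. The log2FC of -0.85 (SE 0.378, 95% interval -1.82 to 0.12) came with a limma adjusted p of 0.444, and 6.11% of all genes tested differed by as much or more in either direction. This value moved with single libraries, to -0.38 without Ets1-/- replicate 2, -0.54 without WT replicate 2, -1.16 without WT replicate 1 and -1.32 without Ets1-/- replicate 1. Irf4 lies on chromosome 13 from 30841095 to 30858796, on the plus strand.

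Because Irf4 and Irf8 share partners and DNA sites, their balance within each library was also computed, after the values of both had been seen and so without a test. Irf8 was 4.79 and 3.34 times Irf4 in the WT libraries and 6.55 and 14.7 times Irf4 in the Ets1-/- libraries. Because Irf8 was higher and Irf4 lower without overlap, both Ets1-/- ratios had to lie above both WT ratios. That order adds nothing to the values of the single genes. The geometric mean ratio in Ets1-/- cells was 2.45 times that in WT cells. As a share of the summed FPKM of the 8 genes, Irf8 took 27.8% and 30.8% in WT and 35.7% and 34.7% in Ets1-/- cells. Irf4 took 5.81% and 9.22% in WT and 5.45% and 2.36% in Ets1-/- cells. The sum itself was 813.5 and 796.5 FPKM in WT and 829.3 and 974.9 FPKM in Ets1-/- cells, so that Ets1-/- replicate 2 had the highest total.

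**Figure D3:**
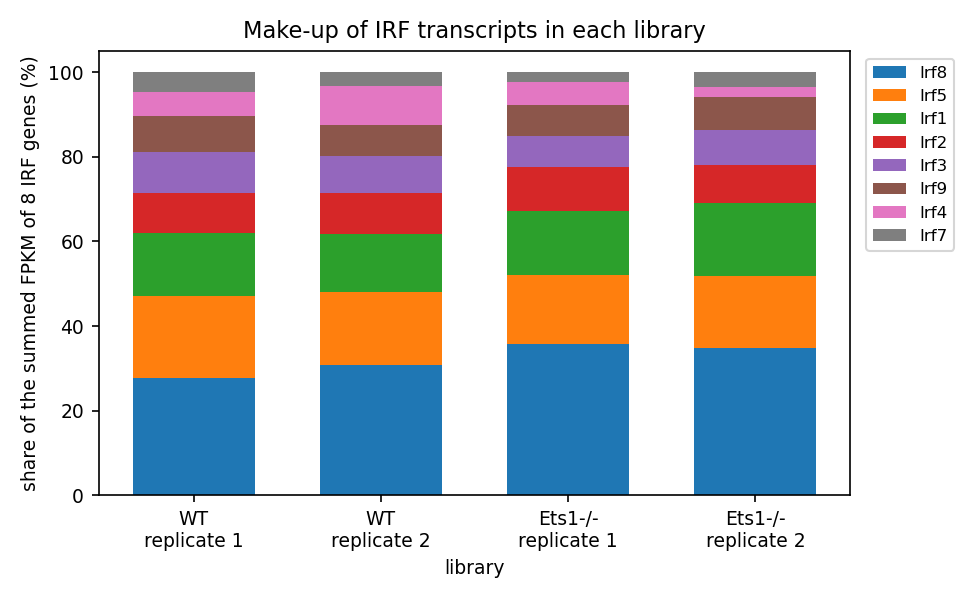
Share of each IRF gene (%) in the summed FPKM of the 8 genes, 1 bar per library. Irf8 takes 27.8% and 30.8% of the WT bars and 35.7% and 34.7% of the Ets1-/- bars, and Irf4 takes its smallest share, 2.36%, in Ets1-/- replicate 2.

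Irf1, an activator induced by interferon-gamma that drives antigen processing genes, had 119.7 and 109 FPKM in WT and 126 and 169.6 FPKM in Ets1-/- cells. The genotypes did not overlap, but Ets1-/- replicate 1 was closer to the WT libraries than to Ets1-/- replicate 2. The log2FC was 0.35 (SE 0.198, 95% interval -0.16 to 0.86), and limma gave an adjusted p of 0.590. Without Ets1-/- replicate 2 it was 0.14, and without Ets1-/- replicate 1 it was 0.56. Irf1 lies on chromosome 11 from 53583516 to 53591876, on the plus strand.

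Irf2, which binds the same sites as Irf1 and mostly represses there, had the smallest spread of the family. Its values were 78.07 and 78.13 FPKM in WT and 86.42 and 86.74 FPKM in Ets1-/- cells. All 4 libraries were close, with the genotypes apart by much more than their replicates. The ratio of means was 1.11, and the log2FC of 0.15 (SE 0.134, 95% interval -0.20 to 0.49) came with a limma adjusted p of 0.778. The SE from limma borrows from the spread of all genes and so exceeds that of these replicates. Irf1 was 1.53 and 1.4 times Irf2 in the WT libraries and 1.45 and 1.96 times Irf2 in the Ets1-/- libraries, which overlap. Irf2 lies on chromosome 8 from 47825099 to 47932812, on the plus strand.

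Irf3, Irf5 and Irf7 wait in the cytoplasm until sensors of foreign nucleic acid trigger their phosphorylation, and then drive interferon and inflammatory genes. Irf3, the constitutive member of the group, had 78.4 and 70.0 FPKM in WT and 61.0 and 81.3 FPKM in Ets1-/- cells, with both WT values between the Ets1-/- values. For Irf3 the log2FC was -0.07 (SE 0.192, 95% interval -0.56 to 0.42). Irf5, which acts below Toll-like receptors and is linked to lupus, had 158 and 137 FPKM in WT and 135 and 166 FPKM in Ets1-/- cells, with both WT values again inside the Ets1-/- range. Its log2FC of 0.02 (SE 0.181) was the smallest of the family, and its 95% interval of -0.44 to 0.49 corresponds to a fold of 0.738 to 1.40. Irf7, the interferon-inducible amplifier of the response, had 36.8 and 25.9 FPKM in WT and 19.7 and 33.7 FPKM in Ets1-/- cells, so that each genotype had 1 high and 1 low library. For Irf7 the log2FC was -0.25 (SE 0.308, 95% interval -1.04 to 0.54). The limma adjusted p-values of Irf3, Irf5 and Irf7 were 0.952, 0.989 and 0.856. The sign of each turned when a single library was left out. Irf3 had a log2FC of 0.01 without WT replicate 1 and of 0.13 without Ets1-/- replicate 1, Irf5 of -0.08 without WT replicate 2 and of -0.12 without Ets1-/- replicate 2, and Irf7 of 0.12 without Ets1-/- replicate 1. The ratio of Irf3 to Irf7 was 2.13 and 2.7 in WT and 3.1 and 2.41 in Ets1-/- cells, which overlap. Irf3 lies on chromosome 7 from 52253018 to 52258218 (plus strand), Irf5 on chromosome 6 from 29476625 to 29491869 (plus strand) and Irf7 on chromosome 7 from 148448605 to 148452380 (minus strand).

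Irf9, the DNA-binding part of the interferon-activated complex ISGF3, had 69.0 and 57.3 FPKM in WT and 60.4 and 76.0 FPKM in Ets1-/- cells, and the genotypes overlapped. For Irf9 the log2FC was 0.11 (SE 0.187, 95% interval -0.37 to 0.58), and limma gave an adjusted p of 0.907. It was -0.03 without WT replicate 2 and -0.06 without Ets1-/- replicate 2. Irf9 lies on chromosome 14 from 56222408 to 56228867, on the plus strand.

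Start-site windows from RefSeq, from 250 bases before to 50 bases after each start, were searched on both strands for 4 motifs, which were chosen with the expression values known. The 8 genes had 11 windows, all found once in mm9. The Stat site TTCNNNGAA, through which interferon-gamma acts, was in 3 of the 11 windows (1 each of Irf1, Irf2 and Irf8) and in 8.30% of all 32851 windows. The interferon response element GAAANNGAA and the Ets-IRF composite element GGAANNGAA were each in 1 window, that of Irf2, and in 8.56% and 8.24% of all windows. The Ets site CCGGAAG was in 0 of the 11 windows and in 8.86% of all windows. Other forms of an Ets site were not searched. The windows of Irf3 and Irf5, for example, hold CGGAAG, the same letters without the first C. Overlap between these motifs was allowed, and a match is a string of letters, not a site shown to be bound. The 100 bases around the matches are shown for the 3 windows that held any, 5′ to 3′ on the plus strand of mm9, with the motif letters in capitals.
Irf1 (chr11:53583396-53583495, 120 to 21 bases before the start): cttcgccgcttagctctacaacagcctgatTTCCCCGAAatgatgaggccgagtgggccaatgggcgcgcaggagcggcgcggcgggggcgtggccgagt
Irf2 (chr8:47824849-47824948, 250 to 151 bases before the start): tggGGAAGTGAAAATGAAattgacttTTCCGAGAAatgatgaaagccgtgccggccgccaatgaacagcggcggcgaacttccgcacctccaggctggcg
Irf8 (chr8:123260057-123260156, 201 to 102 bases before the start): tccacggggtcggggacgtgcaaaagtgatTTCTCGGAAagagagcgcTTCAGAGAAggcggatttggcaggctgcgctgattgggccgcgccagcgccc
In Irf2 the composite element GGAAGTGAA, 247 bases before the start, runs into the interferon response element GAAAATGAA, 241 bases before it, so their capitals are joined. The Stat site letters of Irf1 begin 90 bases before the start and those of Irf8 begin 171 and 153 bases before it. Irf1, Irf2 and Irf8 were also the 3 genes whose Ets1-/- libraries were both above WT, an overlap that was not tested.

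**Figure D4:**
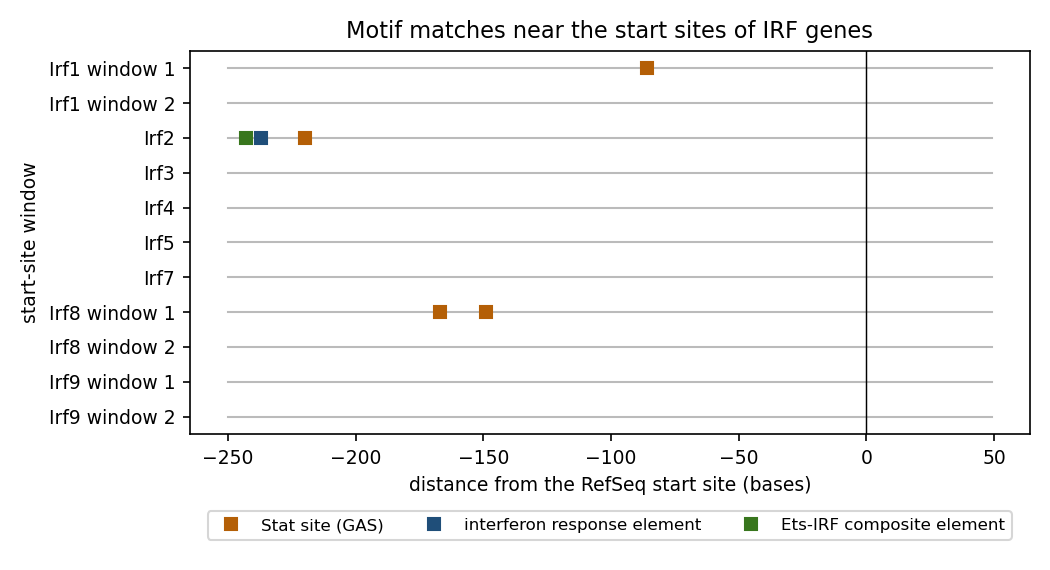
Matches of the searched motifs (squares) in the 11 RefSeq start-site windows of the IRF genes (grey lines), by distance from the start in bases. Stat sites lie in 1 window each of Irf1, Irf2 and Irf8, and the composite and interferon response elements lie in Irf2. No window holds the letters CCGGAAG, the only form of an Ets site searched.

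In 7 of the 8 IRF genes, all but Irf4, Ets1-/- replicate 2 was higher than Ets1-/- replicate 1, an order seen in 54.2% of all genes tested. The neutrophil markers ran the other way, with Ets1-/- replicate 2 at 27.4% of replicate 1. Irf1 and Irf8, which myeloid cells also express, were highest in Ets1-/- replicate 2, as were Irf2, Irf3, Irf5 and Irf9. The log2FC of Irf8 was 0.52 without Ets1-/- replicate 1 and 0.33 without Ets1-/- replicate 2. Monocyte and macrophage markers summed to 76.21 and 43.37 FPKM in WT and to 158.8 and 104.7 FPKM in Ets1-/- cells, with 1 of the 6 tested called higher and 2 of 8 under 1 FPKM throughout. The called gene, Emr1, had 2.35 and 2.63 FPKM in WT and 23.5 and 37.2 FPKM in Ets1-/- cells, so that it too was highest in Ets1-/- replicate 2. Of the other tested genes of that list, Lyz2 and C1qa had log2FC values of 1.28 and 0.36, and Csf1r, Cd68 and Ly6c2 of -0.16, -0.06 and -0.07, none of them called. Dendritic cell markers summed to 7.022 and 5.397 FPKM in WT and to 11.57 and 11.06 FPKM in Ets1-/- cells, with Cd209a called higher and 4 of 8, among them Clec9a and Xcr1, under 1 FPKM throughout. Plasma cell markers, a list that includes Irf4, summed to 355.9 and 415.7 FPKM in WT and to 427.8 and 457.5 FPKM in Ets1-/- cells. Mzb1 made up the largest part of that sum, and 0 of the 7 tested genes were called. Their directions differed, with log2FC values of 1.08, 0.66, 0.53 and 0.38 for Sdc1, Prdm1, Mzb1 and Slamf7. Those of Xbp1, Igj and Irf4 were -0.36, -0.17 and -0.85. T cell markers summed to 117.9 and 96.51 FPKM in WT and to 101.2 and 135.1 FPKM in Ets1-/- cells. None of the 6 marker lists had a gene at 0 in all libraries, and the part of these cells in the IRF values was not tested.

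Some annotated genes overlap IRF genes, and reads can then be shared. Gm20388 covers the whole of Irf8 on the same strand and has no value in the tables. Bcl2l12, on the opposite strand to Irf3 with 1065 shared bases, had 28.1 and 26.4 FPKM in WT and 14.5 and 18.8 FPKM in Ets1-/- cells. Tnpo3 shares 1043 bases with Irf5 and Gm17334 shares 907 bases with Irf1, both on the opposite strand, while Rnf31 and Phrf1 share 123 and 45 bases with Irf9 and Irf7. The strand setting of the counting was not given in the sources used here, so these IRF values are uncertain to that extent. Irf2 and Irf4 overlap no other annotated gene, and 0 of the 8 genes lie on chromosome 9, which carries Ets1.

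The genes that act with or under IRF factors were read from the same limma fit, in lists chosen with earlier results of these data known. Among the Ets and AP-1 partners of Irf4 and Irf8, 0 of 8 tested genes were called, 0 had an unadjusted p under 0.05, and the median log2FC was 0.16. This list also held Ikzf1 and Ikzf3, which are neither Ets nor AP-1 factors. PU.1 (listed as Sfpi1) had 102 and 90.5 FPKM in WT and 85.6 and 123 FPKM in Ets1-/- cells, and Spib had 290 and 269 FPKM in WT and 302 and 358 FPKM in Ets1-/- cells. The largest differences were those of the AP-1 subunits Jun and Junb. Jun had 549 and 991 FPKM in WT and 1190 and 1432 FPKM in Ets1-/- cells, with a log2FC of 0.82 at a limma adjusted p of 0.400. Junb had 654 and 898 FPKM in WT and 1064 and 1511 FPKM in Ets1-/- cells, with a log2FC of 0.73 at a limma adjusted p of 0.377. For 5 of the 8 listed genes, Ikzf1 among them, both Ets1-/- libraries were above both WT libraries and for 0 both were below. These orders were found for 19.4% and 22.2% of all genes tested.

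Upstream of the interferon-linked members, 0 of 6 genes of the interferon receptor and ISGF3 and 0 of 16 tested sensors, adaptors and kinases that activate Irf3, Irf5 and Irf7 were called, and 0 of either list had an unadjusted p under 0.05. Their median log2FC values were 0.04 and 0.00. Without overlap between the genotypes, 2 of the 6 were higher and 1 lower in Ets1-/- cells, and 5 of the 16 were higher and 2 lower. Of all genes tested, 19.4% were higher and 22.2% lower without overlap. The receptor kinase Jak1 had 139 and 128 FPKM in WT and 103 and 111 FPKM in Ets1-/- cells, a log2FC of -0.32 at a limma adjusted p of 0.467. Among the activators, the DNA-sensing adaptor Tmem173 (STING) had 77.4 and 62.5 FPKM in WT and 46.4 and 66.1 FPKM in Ets1-/- cells, which overlap. Tlr3, a receptor of double-stranded RNA, was near 1 FPKM, with 0.956 and 1.43 FPKM in WT and 1.03 and 0.494 FPKM in Ets1-/- cells.

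Of 22 tested interferon-stimulated genes under Irf7 and ISGF3, 1 was called and 7 had an unadjusted p under 0.05, beside 1.70% and 13.3% of all genes tested, and the median log2FC was -0.12. Both Ets1-/- libraries were above both WT libraries for 4 of the 22 and below for 8, beside 19.4% and 22.2% of all genes tested. The called gene was Oasl2, of the oligoadenylate synthetase-like family, which fell from 4.77 and 3.84 FPKM in WT to 0.144 and 0.146 FPKM in Ets1-/- cells. The Oasl2 log2FC of FPKM + 1 was -2.21 (SE 0.17), and limma gave an adjusted p of 0.00969. With Ets1-/- values this far below 1 FPKM, that log2FC understates the fall in FPKM. For this gene too, the strain difference and the genotype cannot be told apart. The remaining 6 with an unadjusted p under 0.05, named after their values were seen, did not share a direction. Isg15, Mx2 and Zbp1 had log2FC values of 0.42, 0.59 and 0.70, and Ifit2, Oas2 and Eif2ak2 had log2FC values of -0.64, -0.48 and -1.08. Their adjusted p-values from limma were all above 0.05. Irf7 itself overlapped between the genotypes, as did Irf9.

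Of 12 tested targets of Irf1 in antigen processing and the interferon-gamma response, 0 were called and 3 had an unadjusted p under 0.05. Of all genes tested, 1.70% were called and 13.3% had such a p. The median log2FC of the 12 was 0.22. Gbp2, a guanylate-binding protein of cell-autonomous defence, had 9.18 and 9.07 FPKM in WT and 19.4 and 26.9 FPKM in Ets1-/- cells. Its log2FC of 1.24 (SE 0.191) came with a limma adjusted p of 0.0562, just above the threshold of 0.05. Socs1, a feedback inhibitor of Jak kinases, had 5.28 and 4.10 FPKM in WT and 7.54 and 13.4 FPKM in Ets1-/- cells, a log2FC of 0.97 at a limma adjusted p of 0.221. The third was Psmb10, an immunoproteasome subunit named after its value was seen, with a log2FC of 0.54. For 6 of the 12 targets both Ets1-/- libraries were above both WT libraries, and for 1 both were below, beside 19.4% and 22.2% of all genes tested.

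In the circuit through which Irf4 directs B cell fate, 0 of 11 tested genes were called and 3 had an unadjusted p under 0.05. Of all genes tested, 1.70% were called and 13.3% had such a p. The median log2FC of the 11 was 0.08. Without overlap, 3 of the 11 were higher and 2 lower in Ets1-/- cells, beside 19.4% and 22.2% of all genes tested. Bach2, a repressor of plasma cell differentiation, had 25.2 and 25.6 FPKM in WT and 43.4 and 39.4 FPKM in Ets1-/- cells. Its log2FC was 0.68, and limma gave an adjusted p of 0.0975. Myc had 72.5 and 120 FPKM in WT and 197 and 129.9 FPKM in Ets1-/- cells, a log2FC of 0.77 at a limma adjusted p of 0.416. Prdm1, the plasma cell factor Blimp1 that Irf4 activates, was named after its value was seen. Prdm1 had 0.580 and 0.672 FPKM in WT (mean 0.626) and 1.68 and 1.48 FPKM in Ets1-/- cells (mean 1.575). Its log2FC of FPKM + 1 was 0.66 at a limma adjusted p of 0.150. At this low level the added 1 understates the difference in FPKM.

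Of 10 tested B cell targets of Irf8 and PU.1, 0 were called and 1 had an unadjusted p under 0.05. Of all genes tested, 1.70% were called and 13.3% had such a p. The median log2FC of the 10 was 0.15. Without overlap, 5 of the 10 were higher and 1 lower in Ets1-/- cells, beside 19.4% and 22.2% of all genes tested. The gene with an unadjusted p under 0.05 was Bcl6, the germinal centre repressor, which also belongs to the Irf4 circuit. Bcl6 had 32.5 and 33.5 FPKM in WT and 21.3 and 24.4 FPKM in Ets1-/- cells. Its log2FC was -0.51, and limma gave an adjusted p of 0.194. The Irf2 binding proteins are corepressors named for Irf2 and are not IRF factors, and 0 of the 3 were called. Without overlap, 0 were higher and 1 lower in Ets1-/- cells, beside 19.4% and 22.2% of all genes tested. Irf2bpl had 25.9 and 26.5 FPKM in WT and 15.4 and 16.2 FPKM in Ets1-/- cells, a log2FC of -0.70 (SE 0.130) at a limma adjusted p of 0.0842. Irf2bp2 had 22.2 and 35.7 FPKM in WT and 41.1 and 31.1 FPKM in Ets1-/- cells, which overlap.

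**Figure D5:**
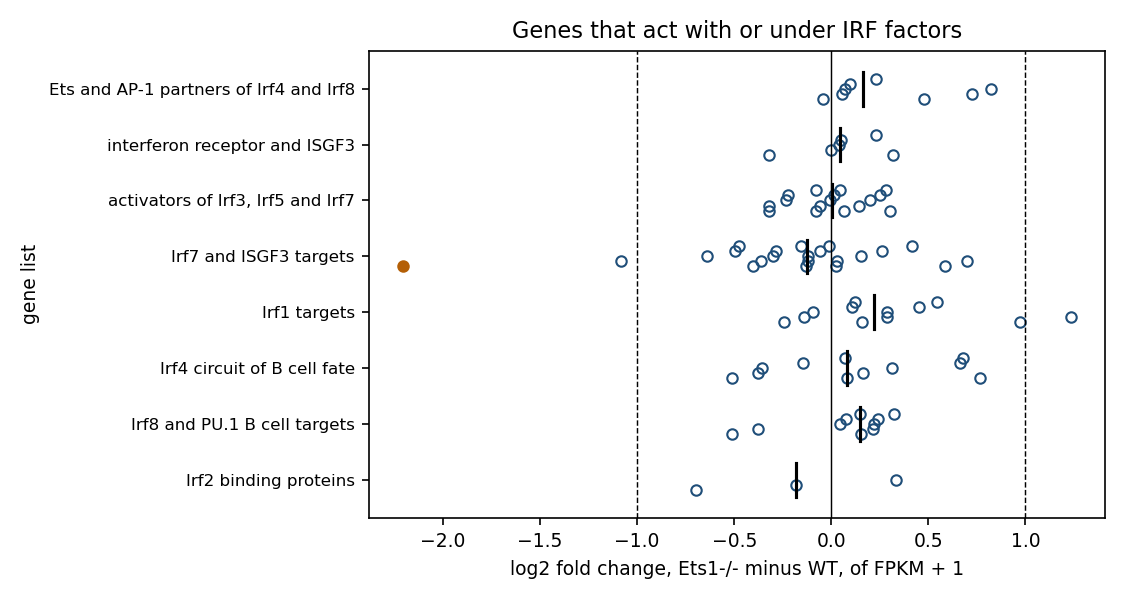
Log2 fold change of FPKM + 1 (Ets1-/- minus WT) of the tested genes in 8 lists of IRF partners, activators and targets, with a circle per gene, a filled circle for a called gene and a black line at each list's median. The filled circle is Oasl2 at -2.21, and the list medians lie between -0.18 and 0.22. The list labelled Ets and AP-1 partners also holds Ikzf1 and Ikzf3.

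The tested genes closest to Irf8 over the 4 libraries, by Euclidean distance on log2(FPKM + 1), were Pold4, Psmb8 and Syk, at distances of 0.127, 0.155 and 0.159. Pold4, a subunit of DNA polymerase delta, had 213 and 251 FPKM in WT and 304 and 358 FPKM in Ets1-/- cells. Psmb8 is an immunoproteasome subunit from the list of Irf1 targets, and Syk is a kinase of B cell receptor signalling. The genes closest to Irf4 were farther away, Hnrnph2 at 0.562, Xist at 0.568 and Slbp at 0.632. Hnrnph2, which encodes an RNA-binding protein, had 40.9 and 57.2 FPKM in WT and 58.4 and 25.1 FPKM in Ets1-/- cells, so that its lowest library was Ets1-/- replicate 2, as for Irf4, but the genotypes overlapped.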

How the data were processed

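The authors mapped the reads to the mouse genome mm9, and the FPKM values they deposited form 1 table for each library. The submitters' processing notes name TopHat2 2.0.13 and Cuffdiff, and the gene annotation, the strand setting and any scaling between libraries were not given in the sources used here. The number of reads behind a value is not in the tables, and no interval for counting error was given. Relative depth was estimated from the spacing of low FPKM values.

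Of 23309 entries, 4 whose symbol occurs more than once were dropped, and 23 symbols read as dates. A linear model from limma 3.58.1 under R 4.3.3 (lmFit, eBayes with a trend) was fitted on log2(FPKM + 1), which understates differences of low genes, for 10949 genes with a mean of at least 1 FPKM in either genotype. P-values were two-sided and adjusted over all genes tested. The fit was tested on simulated data. Same-numbered libraries deviated from their genotype means with a correlation of -0.21. With 2 libraries per genotype this cannot show whether the numbers pair them, and the main fit did not pair them. Tables were handled in Python 3.11.15 with pandas 2.3.3 and numpy 2.4.6.

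The members, lists, markers and motifs were chosen with earlier results of these data known. Genes named were the 8 IRF genes, the called genes of each list or otherwise the 2 with the largest absolute log2 fold change, and the 3 genes nearest to Irf4 and to Irf8. PU.1, Spib and genes said to be named after their values were seen fall outside this rule. Some genes that the rule names are not reported here. Positions come from the GENCODE M1 annotation of mm9. Start-site sequences come from the RefSeq table of GRCm38.p6 and were placed in mm9 by exact match.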

Additional observations from a re-analysis of the deposited data

How the results depend on the processing

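Under the 13 alternatives run, 0 IRF genes were called changed. The direction of Irf1, Irf2, Irf4 and Irf8 was the same in each, and 8 of the 104 fits compared over all 8 genes had another sign, all of them in the other 4 genes. Irf5 was -0.05 with quantile normalization. With each library left out in turn, log2 fold changes ran from -0.28 to 0.13 for Irf3, from -0.12 to 0.17 for Irf5, from -0.62 to 0.12 for Irf7, from -0.06 to 0.27 for Irf9, from 0.14 to 0.56 for Irf1, from 0.14 to 0.15 for Irf2, from -1.32 to -0.38 for Irf4 and from 0.33 to 0.52 for Irf8. In those fits 1 genotype has a lone library, which is assumed to vary like the pair. An unadjusted p under 0.05 was reached by Irf4 in 5 alternatives (0.0344 with at least 1 FPKM in all 4 libraries, 0.0375 with the replicate block, 0.000315 with the crossed replicate block given below, 0.0389 without WT replicate 1 and 0.0262 without Ets1-/- replicate 1), by Irf8 in 3 (0.0399 without a filter, 0.0388 with upper-quartile scaling and 0.0352 without Ets1-/- replicate 1) and by Irf1 in 1 (0.0204 without Ets1-/- replicate 1). The number of genes changed over the whole table was 186 as reported, 75 with no filter, 305 with robust variance estimation and 99 to 116 with each library left out in turn, and the cause was not tested. With the replicate block it was 266, and Irf4 had an adjusted p of 0.391 from limma. A crossed replicate block paired WT replicate 1 with Ets1-/- replicate 2, a pairing that the labels do not give. It was chosen after seeing the data because same-numbered libraries deviated in opposite directions. The fit then takes out the very deviations that led to the choice, so its p-values cannot be set beside the others. This block gave 409 changed genes. Under it the adjusted p of Irf4 was 0.00783 from limma, the lowest of its range (0.00783 to 1.0), at a log2 fold change of -0.85 that stays under the 2-fold minimum. The authors give the reads per sample only as a range, so the depth of each library is known only in relative terms. This limits what can be said of genes near 1 FPKM.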
